A study of Mus musculus with 2 samples.

Results

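Polycomb repressive complex 1 (PRC1) is represented here by 9 of its subunit genes, Ring1, Rnf2, Bmi1, Pcgf6, Cbx2, Cbx6, Cbx7, Cbx8 and Phc1, taken as a list of names. All 9 were found among the 21937 genes of the deposited expression table, and all 9 were among the 18759 genes with reads. The table compares mouse embryonic stem (ES) cells given 500 nM ICRF-193 for 16 h with ES cells given the solvent DMSO for the same time. Both groups were wild-type cells of the mixed strain 129Sv-C57Bl/6, grown without feeder cells. Each group is 1 GEO sample that stands for 3 replicates, and poly(A) selection or the strand of the library is not given in the sources used here. Nothing in the labels ties the replicates to separate cultures. The p-values below therefore measure only the spread between these libraries, which may be technical. ICRF-193 blocks the catalytic cycle of topoisomerase II, which untangles DNA by passing one duplex through another, and the comparison asks how transcription depends on that activity.

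PRC1 is a chromatin complex that keeps developmental genes silent. Its RING E3 ligase, RING1A (gene Ring1) or RING1B (gene Rnf2), pairs with one PCGF protein and attaches ubiquitin to histone H2A. Canonical PRC1 also holds a CBX chromodomain protein, which binds the trimethylated histone H3 tail made by Polycomb repressive complex 2 (PRC2), and a PHC protein, whose SAM domain lets complexes polymerise. Variant PRC1 holds RYBP or YAF2 in place of the CBX protein. In ES cells RING1B and CBX7 are known as the main E3 ligase and the main CBX protein.

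The deposited table gives group means. Reads of single libraries were recovered from the digits of those means (18213 genes, 97.1%, had a single solution in both groups), and each group's libraries were named A, B and C from the largest to the smallest size factor, so that a letter does not stand for a replicate of the labels. The recovered reads summed to between 26842427 and 43356120 per library. Library A stood apart in both groups. Over 11040 genes with at least 100 normalised reads in every library, its median absolute log2 difference from B and C was 0.29 in ICRF-193 and 0.32 in DMSO, against 0.09 and 0.08 between B and C. The labels name no batch, and the split was seen in the data. Fibroblast and feeder markers (5 genes) summed to 7.20 times as many normalised reads in ICRF-193 library A as in ICRF-193 B and C, and to 9.99 times as many in DMSO library A as in DMSO B and C. Most of the library A sums was Col1a1, with 15180 normalised reads in ICRF-193 and 12908 in DMSO. Of the 5, only Thy1 ran the other way, with 353, 381 and 469 in ICRF-193 libraries A, B and C and 185, 281 and 311 in DMSO. For 5 markers of 2-cell-like cells, of which Tcstv3 was at 0 in every library, the sums were also higher in library A. They were 6.68 times those of B and C in ICRF-193 and 8.33 times in DMSO. ES cell markers (5 genes) were present in every library, with sums of 55837 to 64075 normalised reads in ICRF-193 and 84692 to 93934 in DMSO, and 1 of the 5, Zfp42, passed the deposited test with a log2 fold change of -0.99 (adjusted p = 0.0019). Trophectoderm markers (4 genes) summed to 20052 to 32106 normalised reads in ICRF-193 and 13854 to 17030 in DMSO, and Krt18 passed with a log2 fold change of 0.77 (adjusted p = 0.024). Nearly all of each sum was the keratins Krt8 and Krt18. Cdx2 had 187 to 277 normalised reads in ICRF-193 and 81 to 156 in DMSO, and did not pass (deposited adjusted p = 0.067). Elf5 had few reads, 5 to 12 in ICRF-193 and 4 to 14 in DMSO. The part of these markers in the results below was not tested. In bulk RNA, fewer cells of a type and less RNA per cell cannot be told apart.

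None of the 9 subunit genes passed the authors' deposited test (DESeq, adjusted p under 0.05) in either direction, where 5.97% of the genes with reads passed as higher and 1.26% as lower. At an unadjusted p under 0.05 the deposited table called Phc1 lower and no member higher, against 5.38% of genes lower and 11.5% higher. Of the 9, 7 had a negative deposited log2 fold change. So had 50.1% of the 17705 genes with reads in both groups. Among the 11868 genes with a mean of at least 100 normalised reads, a level that 8 of the 9 reached, 60.5% did. The median over the 9 was -0.44, against -0.00099 over the 17705 genes with reads in both groups and -0.10 over the 11868 genes with a mean of at least 100 normalised reads. The 6 genes that the fit with a library split below called lower, Ring1, Pcgf6, Cbx2, Cbx6, Cbx7 and Phc1, were grouped after their values were seen. They lay between -0.36 and -0.59 on the log2 scale, which is a change in mean of between -22.3% and -33.8%. Of the genes with a mean of at least 100 normalised reads, 18.9% lay at or below Cbx7, the highest of the 6. Rnf2, Bmi1 and Cbx8 lay at -0.01, 0.08 and 0.48.

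limma-voom on the recovered reads tested 14966 genes, those that reached 10 reads in 3 or more libraries. It called Cbx2, Cbx6, Pcgf6 and Phc1 lower and no member higher (adjusted p under 0.05 over all genes tested), where 5.91% of genes were called lower and 9.76% higher. Leaving out 1 library at a time changed that count to 0 without DMSO library B or ICRF-193 library C, 1 without DMSO library C or ICRF-193 library B, 2 without ICRF-193 library A and 5 without DMSO library A. The share of all genes called was not counted for these fits, so their counts cannot be set against it. A fit with a term for library A against B and C called 6 members lower and none higher, where 32.6% of genes were lower and 27.0% higher. These are the 6 genes grouped above, which were picked by this fit, so their match with that group is no support. Without both libraries A the same 6 were called lower and no member higher, where 29.8% of genes were lower and 24.1% higher. The libraries of Cbx2, Cbx6, Pcgf6 and Phc1 did not overlap between groups, with ICRF-193 below, and 18.7% of genes did so. No member lay above without overlap, and 18.7% of genes did that. An exact permutation test of 3 libraries against 3 cannot give a p below 0.1.

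**Figure D1:**
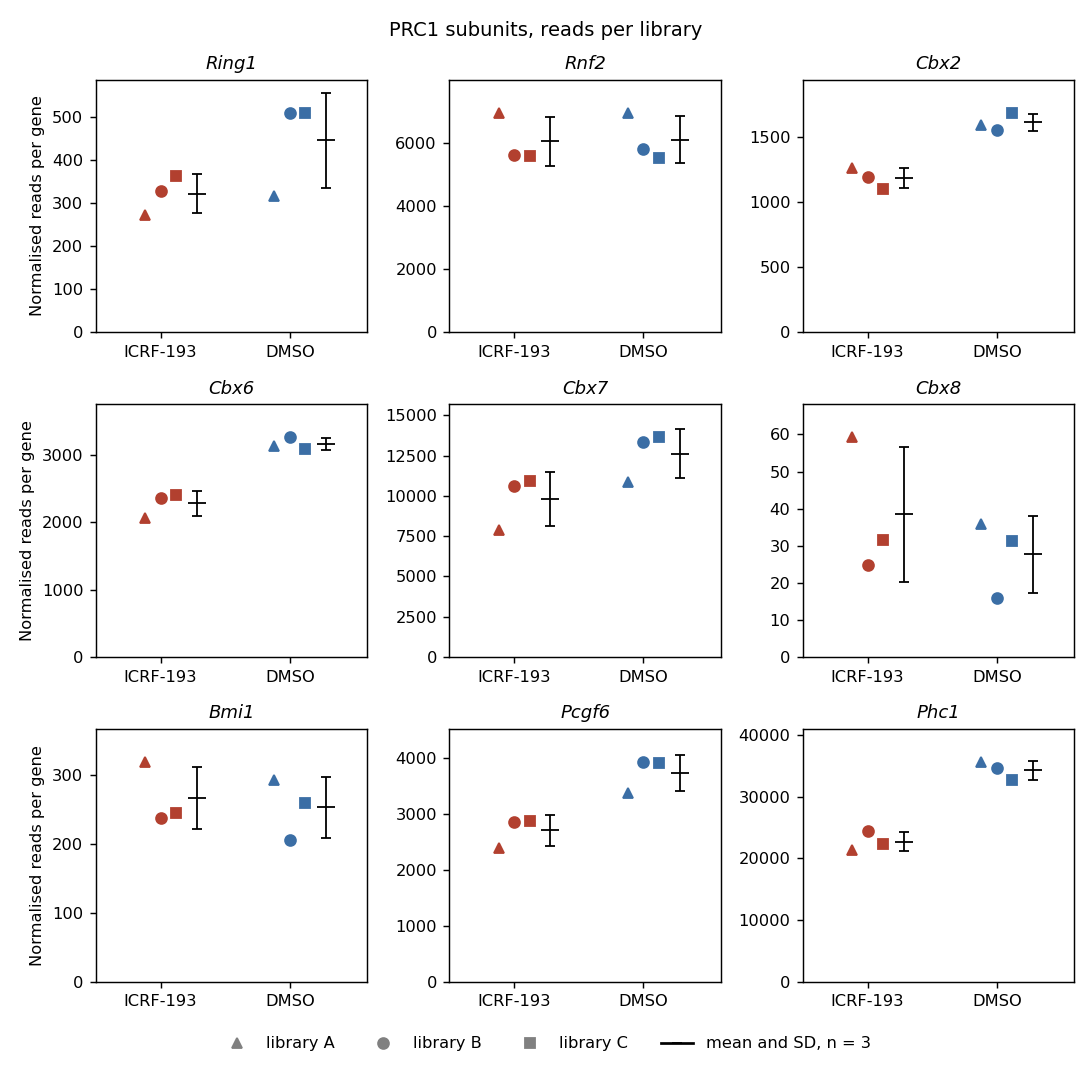
Normalised reads of each of the 9 genes (vertical axis, starting at 0) in the 3 libraries of ICRF-193 (left, red) and DMSO (right, blue); symbols mark libraries A, B and C, and black bars give the mean and SD (n = 3). The groups of Cbx2, Cbx6, Pcgf6 and Phc1 do not overlap, and those of the other 5 genes do.

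The E3 ligase genes are Ring1 and Rnf2. Ring1 (ENSMUSG00000024325.8) had 273, 329 and 364 normalised reads in ICRF-193 libraries A, B and C, against 318, 509 and 510 in DMSO. Its DMSO library A lay within the ICRF-193 range and the other DMSO libraries above it. The deposited means were 322 ± 45.7 in ICRF-193 and 446 ± 111 in DMSO (SD of the recovered libraries, n = 3 each), a log2 fold change of -0.47 (adjusted p = 0.42, deposited DESeq test). With the library split, limma-voom put it at -0.46 (95% interval -0.68 to -0.23, adjusted p = 0.0028), and without that term at -0.43 (-0.998 to 0.13, adjusted p = 0.26).

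Rnf2 (ENSMUSG00000026484.13) had 6941, 5603 and 5574 normalised reads in ICRF-193 libraries A, B and C, against 6944, 5805 and 5525 in DMSO. The groups lay on top of each other, with library A high in both. Its means were 6039 ± 781 in ICRF-193 and 6092 ± 751 in DMSO (SD, n = 3 each), a deposited log2 fold change of -0.01 (adjusted p = 1). With the library split, the limma-voom interval ran from -0.12 to 0.09 (adjusted p = 0.82) while that of Ring1 was wholly below 0. The ratio of Ring1 to Rnf2 normalised reads was 0.039, 0.059 and 0.065 in ICRF-193 libraries A, B and C, against 0.046, 0.088 and 0.092 in DMSO, so the groups overlapped, and the difference between the genes was not tested. The sign of Rnf2 turns with scaling: total read scaling in the split fit gave 0.12 (limma-voom, adjusted p = 0.046, the only member then called higher), and it also moved the median of all genes up by 0.13. That fit called 36.4% of all genes higher and 19.4% lower. The exons of Rnf2 share 158 bases, 3.83% of its exonic bases, with Trmt1l on the opposite strand, and without strand those reads cannot be told apart.

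The sequences upstream of the annotated start sites are shown for both ligase genes because one gene of the pair was called lower under the split fit and the other was not called. The windows are the 250 bases before the RefSeq start (GRCm38.p6), each on the gene's strand, 5′ to 3′: chr17:34024681-34024930, minus strand, for Ring1 and chr1:151500992-151501241, minus strand, for Rnf2. Neither window holds an annotated exon. Capitals mark matches on either strand to 4 short motifs, which may overlap. The GC box was searched as GGGCGG. The E-box was searched as CACGTG. The core of the cyclic AMP response element (CRE core) was searched as TGACGT. The CCAAT box was searched by its name's letters and is in none of the windows printed here.
Ring1: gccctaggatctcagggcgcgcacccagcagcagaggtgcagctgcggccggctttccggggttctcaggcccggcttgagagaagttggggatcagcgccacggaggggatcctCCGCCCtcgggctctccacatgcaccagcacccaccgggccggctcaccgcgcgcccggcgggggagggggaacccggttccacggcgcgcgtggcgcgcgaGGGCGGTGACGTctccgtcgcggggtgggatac
Rnf2: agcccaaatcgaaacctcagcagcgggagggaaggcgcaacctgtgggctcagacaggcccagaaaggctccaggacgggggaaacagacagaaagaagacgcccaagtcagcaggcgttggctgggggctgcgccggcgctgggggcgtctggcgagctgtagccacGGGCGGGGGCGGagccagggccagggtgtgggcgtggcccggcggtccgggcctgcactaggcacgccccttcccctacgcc
Ring1 has 2 GC boxes and 1 CRE core in its window, and Rnf2 has 2 GC boxes and no CRE core. A GC box is in 32.9% and a CRE core in 6.56% of 27025 mouse promoters read the same way, and a match is a description of letters, not a site.

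The PCGF genes are Pcgf6 and Bmi1. PCGF6 belongs to variant PRC1, while BMI1 (PCGF4) is a canonical subunit best known as a repressor of the Cdkn2a locus. Pcgf6 (ENSMUSG00000025050.8) had 2392, 2850 and 2875 normalised reads in ICRF-193 libraries A, B and C, against 3369, 3927 and 3902 in DMSO. Every ICRF-193 library was below every DMSO library. The means were 2706 ± 272 in ICRF-193 and 3732 ± 315 in DMSO (SD, n = 3 each), a deposited log2 fold change of -0.46 (adjusted p = 0.33). limma-voom gave -0.46 (95% interval -0.75 to -0.18, adjusted p = 0.046), and with the split -0.47 (-0.57 to -0.36, adjusted p = 2.06e-05).

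Bmi1 (ENSMUSG00000026739.13) had 319, 238 and 245 normalised reads in ICRF-193 libraries A, B and C, against 294, 206 and 259 in DMSO. The groups overlapped. The means were 267 ± 44.9 in ICRF-193 and 253 ± 44.0 in DMSO (SD, n = 3 each), a deposited log2 fold change of 0.08 (adjusted p = 1), and the split fit gave 0.09 (95% interval -0.16 to 0.34, limma-voom adjusted p = 0.51). The ratio of Bmi1 to Pcgf6 normalised reads was 0.13, 0.084 and 0.085 in ICRF-193 libraries A, B and C, against 0.087, 0.053 and 0.066 in DMSO, with overlap. Against Pcgf2, the other canonical PCGF gene, the ratio was 0.11, 0.075 and 0.086 in ICRF-193, against 0.072, 0.051 and 0.067 in DMSO, and the groups were apart by a narrow gap. The differences between the genes were not tested. The log2 fold change of Bmi1 turned negative (-0.06) when DMSO library B or ICRF-193 library A was left out. The promoters of this pair are shown for the same reason as those of the E3 ligases, with the same capitals, at chr2:18676768-18677017, plus strand, for Bmi1 and chr19:47050907-47051156, minus strand, for Pcgf6 (GRCm38.p6, no annotated exon in either window).
Bmi1: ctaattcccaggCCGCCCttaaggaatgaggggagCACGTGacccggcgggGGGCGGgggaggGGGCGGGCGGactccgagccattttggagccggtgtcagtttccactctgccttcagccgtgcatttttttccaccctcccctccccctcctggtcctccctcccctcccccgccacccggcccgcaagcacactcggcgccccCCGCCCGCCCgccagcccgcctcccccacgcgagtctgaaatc
Pcgf6: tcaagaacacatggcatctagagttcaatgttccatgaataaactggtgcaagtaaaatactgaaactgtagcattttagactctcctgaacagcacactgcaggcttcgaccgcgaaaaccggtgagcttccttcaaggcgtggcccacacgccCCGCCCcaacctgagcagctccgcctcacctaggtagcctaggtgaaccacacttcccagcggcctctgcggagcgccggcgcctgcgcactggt
Bmi1 has 6 GC boxes, which overlap in part, and 1 E-box, a motif found in 6.05% of promoters, and Pcgf6 has 1 GC box.

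Among the 4 CBX genes, Cbx7 (ENSMUSG00000053411.16) was the most abundant. It had 7888, 10639 and 10905 normalised reads in ICRF-193 libraries A, B and C, against 10859, 13370 and 13631 in DMSO. Library A was the lowest in both groups, and ICRF-193 library C was above DMSO library A, so the groups overlapped. The means were 9810 ± 1670 in ICRF-193 and 12620 ± 1531 in DMSO (SD, n = 3 each), a deposited log2 fold change of -0.36 (adjusted p = 0.52). limma-voom gave -0.37 (95% interval -0.75 to 0.02, adjusted p = 0.17), and with the split -0.37 (-0.47 to -0.27, adjusted p = 7.38e-05).

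Cbx2 (ENSMUSG00000025577.7), whose product compacts chromatin, had 1259, 1195 and 1100 normalised reads in ICRF-193 libraries A, B and C, against 1593, 1556 and 1686 in DMSO. The groups did not overlap. Its means were 1185 ± 80.0 in ICRF-193 and 1611 ± 67.1 in DMSO (SD, n = 3 each), a deposited log2 fold change of -0.44 (adjusted p = 0.38). limma-voom put it at -0.44 (95% interval -0.69 to -0.20, adjusted p = 0.033), and with the split at -0.44 (-0.59 to -0.29, adjusted p = 0.00029).

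Cbx6 (ENSMUSG00000089715.12) had 2066, 2366 and 2412 normalised reads in ICRF-193 libraries A, B and C, against 3130, 3264 and 3092 in DMSO. These groups were also apart. The means were 2281 ± 188 in ICRF-193 and 3162 ± 90.4 in DMSO (SD, n = 3 each), a deposited log2 fold change of -0.47 (adjusted p = 0.30). limma-voom gave -0.47 (95% interval -0.71 to -0.24, adjusted p = 0.025), and with the split -0.48 (-0.61 to -0.35, adjusted p = 6.24e-05). Cbx6 shares 563 exonic bases with Npcd on the same strand, 5.31% of its exonic bases, and Cbx7 shares 100 bases, 1.54%, with Apobec3 on the opposite strand.

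Cbx8 (ENSMUSG00000025578.9) was close to the floor of the assay. It had 59, 24 and 28 recovered reads in ICRF-193 libraries A, B and C, against 45, 16 and 29 in DMSO, with library A highest in both groups. The means were 38.5 ± 18.2 normalised reads in ICRF-193 and 27.7 ± 10.5 in DMSO (SD, n = 3 each), a deposited log2 fold change of 0.48 (adjusted p = 0.82). The interval of the split fit ran from -0.09 to 1.12 (limma-voom, adjusted p = 0.13), wide enough to hold no change and more than a doubling.

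Phc1 (ENSMUSG00000040669.14), the polyhomeotic gene of this set, was the most abundant member and had the lowest deposited log2 fold change of the 9. It had 21438, 24387 and 22405 normalised reads in ICRF-193 libraries A, B and C, against 35664, 34655 and 32688 in DMSO. The groups were far apart relative to their spread. The means were 22743 ± 1503 in ICRF-193 and 34336 ± 1513 in DMSO (SD, n = 3 each), a deposited log2 fold change of -0.59. The deposited DESeq test gave an adjusted p = 0.12. limma-voom gave -0.60 (95% interval -0.80 to -0.39, adjusted p = 0.0087) and with the split -0.60 (-0.72 to -0.47, adjusted p = 8.72e-06). For Phc1 the digits of the group means left 2 combinations of reads in ICRF-193 and 3 in DMSO, and the one used had a posterior of at least 0.99.

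**Figure D2:**
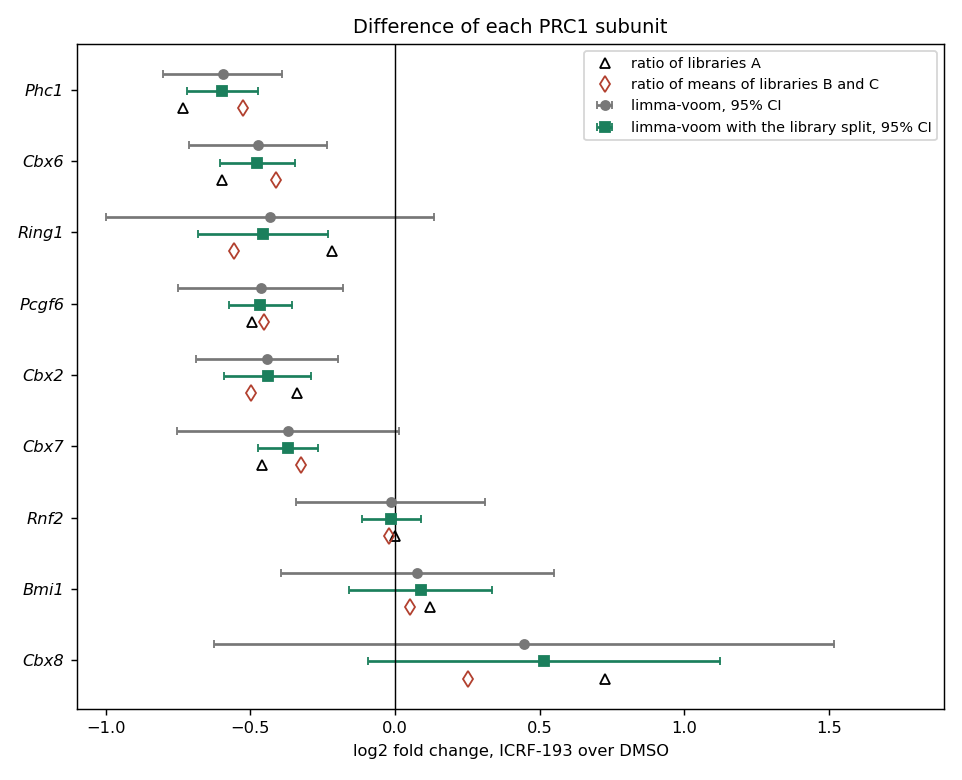
The log2 fold change of each gene, ICRF-193 over DMSO (horizontal axis), from limma-voom (grey) and limma-voom with the library split (green), each with its 95% interval (CI), and the log2 ratio within libraries A (open triangles) and of the means of libraries B and C (open diamonds). Phc1, Cbx6, Ring1, Pcgf6, Cbx2 and Cbx7 lie left of 0 by both ratios. The split interval of each of these 6 leaves out 0, and the 6 were picked by that fit.

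The difference between libraries of the same letter varied among the 6 lower genes. Between the libraries A, the log2 ratio was -0.22 for Ring1 and -0.34 for Cbx2, and between the means of libraries B and C it was -0.56 and -0.50. Phc1, Cbx6 and Cbx7 ran the other way, with -0.73, -0.60 and -0.46 between the libraries A and -0.53, -0.41 and -0.33 between B and C. Pcgf6 was near -0.49 and -0.45. Whether the differences between libraries A departed from those between B and C was not tested.

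To compare levels between genes, normalised reads were divided by exon length. Phc1 was highest with 5277 normalised reads per kilobase in ICRF-193 and 7966 in DMSO. Cbx7 followed with 2882 in ICRF-193 and 3707 in DMSO, then Rnf2 with 1806 and 1821, and Pcgf6 with 1253 and 1729. Cbx6, Cbx2, Ring1 and Bmi1 had 393, 311, 158 and 72.3 normalised reads per kilobase in ICRF-193, and 545, 423, 219 and 68.5 in DMSO. Cbx8 was lowest with 10.8 in ICRF-193 and 7.73 in DMSO. Neighbours in this order were apart in all 3 libraries, except Rnf2 and Pcgf6, which overlapped in DMSO. With the exons of all transcripts in place of the basic set, Cbx7 and Rnf2 overlapped in both groups and Cbx2 stood above Cbx6.

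**Figure D3:**
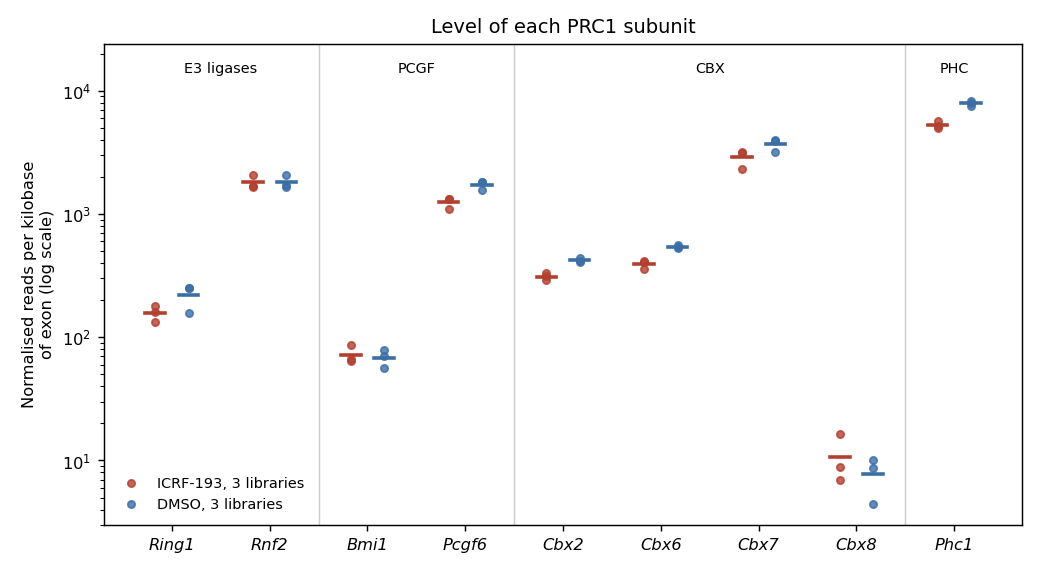
Normalised reads per kilobase of exon (vertical axis, log scale) of the 9 genes, grouped by role, in ICRF-193 (left of each pair, red) and DMSO (right, blue); points are libraries and bars are means. Phc1 is highest at 5277 in ICRF-193 and 7966 in DMSO, and Cbx8 is lowest at 10.8 and 7.73.

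The balance within families was described as a share of summed levels per kilobase. Rnf2 made up 91.8% ± 1.88 of the RING pair in ICRF-193 and 89.1% ± 3.42 in DMSO (SD, n = 3 each), and the libraries overlapped. Phc1 made up 85.6% ± 2.08 of the 3 PHC genes in ICRF-193 and 92.6% ± 0.75 in DMSO, and here the groups were apart. Pcgf6 made up 40.0% ± 4.28 of the 6 PCGF genes in ICRF-193 and 44.5% ± 3.62 in DMSO, and Bmi1 made up 2.30% ± 0.38 in ICRF-193 and 1.76% ± 0.31 in DMSO, both with overlap. With the exons of all transcripts, the Bmi1 share was 3.22% ± 0.41 in ICRF-193 and 2.57% ± 0.40 in DMSO, and the groups were narrowly apart. Of the summed level of Bmi1 and Pcgf2 alone, Bmi1 made up 6.39% ± 1.09 in ICRF-193 and 4.63% ± 0.76 in DMSO. The groups were narrowly apart, with a lowest ICRF-193 library at 5.41% and a highest DMSO library at 5.23%. This share restates the ratio of Bmi1 to Pcgf2 given above and is not a separate result. The ratio of Phc1 to Phc2 normalised reads was 5.75, 7.55 and 7.01 in ICRF-193 libraries A, B and C, against 13.5, 15.4 and 14.5 in DMSO.

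The partners outside the 9 were counted from lists, none of which had a member passing the deposited test other than the developmental regulators. Of 6 other canonical subunits, 0 passed and the median log2 fold change was 0.11. Phc2, a second polyhomeotic gene, had 3730, 3232 and 3198 normalised reads in ICRF-193 libraries A, B and C, against 2639, 2250 and 2253 in DMSO (log2 0.51, adjusted p = 0.26 in the deposited test, 1.20e-05 by limma-voom with the split). Pcgf2 had 2993, 3196 and 2846 in ICRF-193 and 4083, 4023 and 3868 in DMSO (log2 -0.41, adjusted p = 0.42 deposited, 0.00015 by limma-voom with the split). Under the split fit Phc1 was thus called lower and Phc2 higher, while Phc3, the other PHC gene, was not called (log2 0.19, 95% interval -0.02 to 0.40, limma-voom adjusted p = 0.11).

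Of 25 variant PRC1 subunits, 0 passed and the median was -0.19. Auts2, a subunit of PCGF3 and PCGF5 complexes, had a deposited log2 fold change of -0.54 (adjusted p = 0.21), and Pcgf1, the core of the KDM2B complex, -0.51 (adjusted p = 0.43). Of 11 PRC2 genes, 0 passed, 10 lay below 0 and the median was -0.37. All 11 had a mean of at least 100 normalised reads, and 60.5% of the genes at that level lay below 0. Jarid2, which helps recruit PRC2, had the lowest log2 value of that list at -0.62 (deposited adjusted p = 0.090), and Phf1, a Polycomb-like accessory subunit, the highest at 0.70 (adjusted p = 0.39). Of 5 genes of the H2A deubiquitinases and their partners, which remove or help remove the mark that PRC1 places, 0 passed and the median was -0.17. Asxl1, a BAP1 partner, stood at -0.54 (deposited adjusted p = 0.17) and Usp16 at -0.21 (adjusted p = 0.81). limma-voom with the split called 8 of the 11 PRC2 genes lower and 1 higher, 14 of the 25 variant subunits lower and 5 higher, and 3 of the 5 deubiquitinase genes lower, beside the background of 32.6% lower and 27.0% higher given above. With total read scaling in the split fit, which called 19.4% of all genes lower and 36.4% higher, the counts were 7 lower and 1 higher for PRC2, 7 lower and 6 higher for the variant subunits, and 1 lower and 1 higher for the deubiquitinase genes. At an unadjusted p under 0.05 the deposited test called 1 other canonical gene higher, and 1 variant, 2 PRC2 and 1 deubiquitinase gene lower. Of all genes with reads, 11.5% were higher and 5.38% lower at that threshold. Without the split, limma-voom called 1 other canonical gene higher and 1 lower, 2 variant genes and 2 PRC2 genes lower, and 0 deubiquitinase genes. It called 9.76% of all genes tested higher and 5.91% lower.

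The 30 developmental regulators that Polycomb complexes hold silent in ES cells had a median of 0.67, with 24 above 0 and 6 below 0. Below 0 lay 50.1% of all genes with reads in both groups, and 60.5% of those with a mean of at least 100 normalised reads. Genes with fewer reads thus lay above 0 more often. Of the 30, only 9 had a mean of at least 100 normalised reads, and the list was not compared with genes of similar level. The deposited test called 3 higher and 1 lower, where 5.97% of genes were called higher and 1.26% lower. limma-voom tested 22 of the 30 and called 2 higher and 1 lower, where 9.76% of genes were higher and 5.91% lower. With the split it called 14 higher and 1 lower, where 27.0% were higher and 32.6% lower. With total read scaling in the split fit the counts were 15 and 1, where 36.4% were higher and 19.4% lower. Without both libraries A it tested 18 and called 8 higher and 1 lower, where 24.1% were higher and 29.8% lower. Pax6, a neural and eye regulator, fell to 180, 193 and 166 normalised reads in ICRF-193 libraries A, B and C, against 564, 503 and 482 in DMSO (log2 -1.52, adjusted p = 9.67e-07). The other neural markers looked at did not pass the deposited test and differed in direction. Sox1 lay at -1.18 (deposited adjusted p = 0.054), Nes at 0.48 (0.26) and Tubb3 at 0.13 (0.91). The 3 called higher by the deposited test had few reads. Nkx2-2, a ventral neural tube factor, had 17, 20 and 21 recovered reads in ICRF-193, against 2, 1 and 5 in DMSO (deposited adjusted p = 0.0016). Pax7, a muscle and dorsal neural factor, had 22, 15 and 11 reads in ICRF-193, against 3, 5 and 1 in DMSO (deposited adjusted p = 0.017). Neurog2, a neurogenic factor, had 8, 30 and 19 reads in ICRF-193, against 1, 0 and 1 in DMSO (deposited adjusted p = 0.0040). Eomes, with a log2 fold change of 1.02, did not pass (deposited adjusted p = 0.39), and library A was the highest of its group in both. Primitive endoderm markers, 5 genes of which 4 (Gata4, Gata6, Sox17 and Foxa2) are also on this list, summed to 2.55 times as many normalised reads in ICRF-193 library A as in ICRF-193 B and C, and to 4.08 times as many in DMSO library A as in DMSO B and C, and their part in the list's median was not tested.

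**Figure D4:**
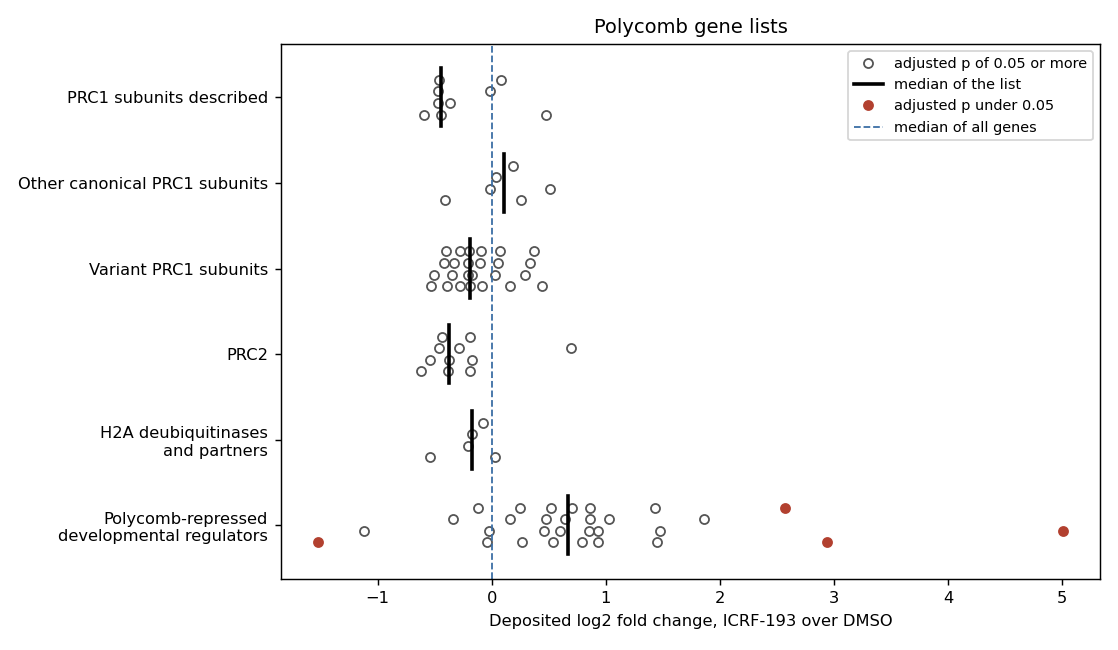
Deposited log2 fold changes, ICRF-193 over DMSO (horizontal axis), of the 9 PRC1 subunits and 5 further Polycomb lists; filled points passed the deposited test, open points did not, black bars are list medians and the dashed line is the median of all genes. The medians are -0.44 for the 9 subunits, -0.37 for PRC2 and 0.67 for the developmental regulators.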

How the data were processed

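RNA was sequenced from ICRF-193 and DMSO cells, 3 libraries per group. Per the submitters' processing notes, the authors used TopHat, HTSeq and DESeq with the build mm9; their versions are not given in the sources used here. The authors deposited 1 table with group means of normalised reads (a signal: reads divided by a size factor), the ratio of those means, its log2, and a p-value with its adjusted p-value. The adjusted values equal Benjamini-Hochberg adjustment over the 18759 genes with reads, checked to within 2.59e-15. The main result is the authors' deposited test, since the table holds means and not reads of single libraries.

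Because a group mean is a sum of whole reads divided by 3 size factors, the reads of each library were solved from the printed digits by a lattice search. Of the genes with reads, 18213 had a single solution in both groups, 485 were taken at a posterior of at least 0.99 and 61 highly expressed genes were left out; none of the 9 members was among these 61. Recomputed size factors differed from the solved ones by at most 0.099%. The steps were tested on simulated data for ICRF-193 over DMSO (18759 genes), where all 36704 single solutions and all 683 posterior ones were right. For simulated log2 changes of 0.5, limma-voom called 0 of 68 genes, and the fit with the library split 60 of 68. For changes of 1 the calls were 7 and 64 of 64 genes, and for changes of 2 they were 57 and 65 of 65. Among 14667 unchanged genes limma-voom made 0 calls and the split fit 12. The split fit takes the library A difference of a gene to be equal in ICRF-193 and DMSO. The simulated libraries were built to meet that assumption, which favours the split fit. Whether the real libraries meet it was not tested. These counts therefore do not give the false call rate of the split fit in the real data. There it called 32.6% of genes lower and 27.0% higher.

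limma-voom (limma 3.58.1, R 4.3.3) was fitted to recovered reads with the solved size factors, for genes that reached 10 reads in 3 or more libraries, and p-values were adjusted over all genes tested. The design had no replicate block, as the columns carry no replicate numbers. Alternatives were a term for library A, leaving out libraries, other scalings and no filter. Positions and exon lengths are from GENCODE vM21 (GRCm38), which is not the authors' build, and promoter sequences are from RefSeq, where 8 of 9 members matched. No columns were left unmatched. The members and gene lists were chosen with earlier results of these data known. All 9 members are named; of each other list the text names those that passed the deposited test and the 2 with the largest absolute log2 fold change among those with a mean of at least 100 normalised reads.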

Additional observations from a re-analysis of the deposited data

How the results depend on the processing

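Counts of members called depended on the fit. The deposited test called 0 higher and 0 lower, and an adjusted p under 0.1 changed neither count. limma-voom called 4 lower, with no filter on low reads 3, with upper quartile scaling 2 and with total read scaling 1. With the library split, and without both libraries A, 6 were lower, and the split with total read scaling or upper quartile scaling (added after seeing the data) also gave 6, with 1 higher, Rnf2, under total read scaling. The split fit with total read scaling called 36.4% of all genes higher and 19.4% lower. At an unadjusted p under 0.05, added after seeing the data, the deposited test called 1 lower. Leaving out 1 library at a time in limma-voom gave 0 to 5 lower and 0 higher: 0 without DMSO library B or ICRF-193 library C, and 5 without DMSO library A. The share of all genes called was not counted for the fits without 1 library, without the filter or with upper quartile scaling. Nor was it counted for total read scaling without the split. These counts may therefore follow the number of genes each fit called. The cause of these differences was not tested.

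Over the 15 alternatives, 7 of the 9 members kept their direction, and of 135 values 9 turned, all of Rnf2 or Bmi1. Rnf2 was 0.12 under total read scaling, with or without the split, and 0.051 under upper quartile scaling and 0.053 with the split as well; leaving out 1 library gave -0.12 to 0.086. Bmi1 was between -0.061 and 0.20 when 1 library was left out. A pseudocount of 10, added to both group means, cannot turn a direction, so its values among the 135 say nothing about stability. No paired analysis was possible because the table's columns carry no replicate numbers; the term for library A rests on a split seen in the data, sets 1 library of each group apart and pairs no others. At 16 to 59 reads per library, the depth limits Cbx8 most.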

Other observations

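Commd3, which ends 786 bases before Bmi1 on the same strand of chromosome 2 (GRCm38) and was chosen after its values were seen, had 1600, 1958 and 2017 normalised reads in ICRF-193 libraries A, B and C, against 771, 701 and 802 in DMSO. The deposited log2 fold change was 1.29 (adjusted p = 1.61e-05), while that of Bmi1 was 0.08. Their annotated exons do not overlap.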
